A study of Mus musculus with 9 samples.

Results

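The 4 mature microRNAs (miRNAs) of 2 neighbouring hairpins, miR-143 and miR-145a, were followed across 3 fat depots of mice. They were found by name: every row that begins with miR-143-, miR-145- or miR-145a- was taken, which gave miR-143-3p, miR-143-5p, miR-145a-3p and miR-145a-5p, 4 of the 1251 miRNAs measured. All 4 were among the 343 miRNAs that exceeded the lowest value in no fewer than 3 of the 9 libraries and were therefore tested. The row of miR-145b, a different hairpin, is not one of them, and it stood at the lowest value in all 9 libraries. Small RNA had been sequenced from interscapular brown adipose tissue (BAT), inguinal subcutaneous adipose tissue (SAT) and epididymal visceral adipose tissue (VAT), with 3 libraries per depot. SAT and VAT are both white adipose tissue (WAT). Every library came from male C57BL/6J mice that had been 5 to 6 weeks old at the start and had then eaten a high fat diet (HFD), with 45% of its energy from fat, for 11 weeks. With no low fat group among these libraries, depots could be compared and the diet could not. The libraries are called by their depot and number, BAT 12, 15 and 20, SAT 14, 19 and 20, and VAT 14, 17 and 20.

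Each hairpin gives 2 mature strands, the 5p and the 3p arm, and one of them, the guide, is mostly kept in Argonaute while its partner, the passenger, is mostly degraded. MiR-143 and miR-145 are known as a pair made from one primary transcript, abundant in smooth muscle and in the mural cells around vessels, where they favour the contractile state. MiR-143 has also been linked to the differentiation of cultured preadipocytes. On GRCm38, Mir143 lies on chromosome 18 from 61649196 to 61649258 on the minus strand, and Mir145a on the same strand from 61647825 to 61647894, 1301 bases further along the direction of transcription. Both lie between annotated genes. The long non-coding RNA Carmn, on the same strand, begins by coordinate 366 bases beyond Mir143, and Bvht, a long non-coding RNA of the opposite strand, ends by coordinate 352 bases before Mir145a.

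All values are the deposited log2 values. The lowest, 3.32 on the log2 scale, is the log2 of 10, and a miRNA at that value was not distinguishable from an absent one. Among the 100 highest ranks the libraries had nearly the same value at equal rank, within 0.05 at 80 of them and within 0.14 at the rest, so that the value of an abundant miRNA follows its place in the order of its library, and some values recur exactly between libraries. Lower down, where the floor began at different ranks in different libraries, this did not hold. No read counts are given, so that depth is unknown and error is measured by the spread within each depot. A share is the percentage of the summed linear values of a library.

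The depot labels were checked with marker miRNAs. The 8 brown adipocyte miRNAs (such as miR-193b-3p and miR-378a-3p) held 7.36% to 20.1% of the summed values in BAT, 1.55% to 1.63% in SAT and 2.18% to 3.32% in VAT. The 5 miRNAs of the Hox clusters held 1.08% to 2.93% in BAT, 5.20% to 8.30% in SAT and 8.05% to 14.4% in VAT. Of the 5, 3 were higher in VAT/BAT, where 39.4% of all tested miRNAs were, and miR-196b-5p and miR-615-3p were not called. MiR-196a-5p, which made little of the summed share, was at 3.96 in VAT 14 against 9.57 and 9.16 in VAT 17 and VAT 20. A few libraries also stood apart in markers of other tissues. The 8 striated muscle miRNAs held 0.0484% in the lowest BAT library but 6.28% in BAT 15 and 17.4% in BAT 20, between 0.041% and 0.0759% in SAT, and 6.27% in VAT 20 against a lowest VAT value of 0.041%. The 3 muscle miRNAs miR-208a-3p, miR-208b-3p and miR-499-5p were at the lowest value in every library. SAT 14 held 0.866% of epithelial miRNAs (6 listed, each at the floor throughout BAT), and SAT 20 held 4.68% of leukocyte miRNAs (7 listed). Leaving out any one library kept the same number of arms, 3 of 4, past the threshold in VAT/BAT, and 2 or 3 in SAT/BAT.

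MiR-143-3p, the guide of its hairpin, was among the most abundant miRNAs of white fat and clearly lower in BAT. The BAT libraries had log2 values of 14.24, 14.18 and 13.69, the SAT libraries 16.38, 16.02 and 16.02, and the VAT libraries 16.38, 16.51 and 16.51. Every SAT and VAT library was above every BAT library, while SAT and VAT touched at 16.38. By rank it was between the 23rd and 31st miRNA of the BAT libraries, the 8th to 10th of the SAT libraries and the 7th or 8th of the VAT libraries. BAT gave it a share of 0.705% ± 0.139, SAT one of 3.00% ± 0.45 and VAT one of 3.74% ± 0.19 (SD, n = 3 each). In limma's moderated test, adjusted by Benjamini and Hochberg over the 343 miRNAs, miR-143-3p had 5.38-fold higher expression in VAT than in BAT (log2 fold change 2.43, standard error 0.24, 95% interval 1.84 to 3.01, adjusted p = 0.000398). In the SAT/BAT comparison it was 4.29-fold higher (log2 fold change 2.10, standard error 0.21, 95% interval 1.56 to 2.64, adjusted p = 0.00184). Both calls held under each of the 14 other settings tried, with log2 fold changes of 2.25 to 2.53 in VAT/BAT and 1.93 to 2.20 in SAT/BAT. VAT and SAT could not be told apart, at a log2 fold change of 0.33 (95% interval -0.02 to 0.68, adjusted p = 0.160).

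MiR-145a-5p, the guide of the neighbouring hairpin, did not show that step between BAT and WAT. Log2 values of 13.51, 13.74 and 13.09 were found for BAT, of 13.94, 14.75 and 14.31 for SAT, and of 13.40, 13.94 and 13.09 for VAT. BAT and VAT covered nearly the same range, and the SAT libraries were at or above the highest value of the other depots. The means were 13.44 ± 0.33 in BAT, 14.33 ± 0.40 in SAT and 13.48 ± 0.43 in VAT (SD, n = 3 each), and the shares were 0.469% ± 0.104, 0.875% ± 0.245 and 0.486% ± 0.150. The VAT/BAT change was 0.03 on the log2 scale (95% interval -0.74 to 0.80, adjusted p = 0.935), an interval that leaves room for a change of 0.80 but not for that of miR-143-3p. Its sign turned when either BAT 20 (-0.15) or VAT 17 (-0.20) was left out. In the SAT/BAT comparison the 2 depots did not overlap, but the change of 0.89 (95% interval 0.15 to 1.63) had an adjusted p of 0.0620. It passed the threshold in 2 of 14 other settings, with an adjusted p of 0.0435 among the 172 miRNAs with the higher mean and 0.0486 in a fit of all 9 libraries. The VAT/SAT change of -0.85 (95% interval -1.67 to -0.04) had an adjusted p of 0.123.

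Both passenger arms were far less abundant, and both were higher in WAT than in BAT. In BAT only 1 library for miR-143-5p and 2 for miR-145a-3p exceeded the lowest value. Both arms therefore passed the filter of 3 libraries only with the help of SAT and VAT, where they are high. MiR-143-5p was at the lowest value in BAT 12 and BAT 20 and at 4.66 in BAT 15, at 5.94, 7.04 and 7.12 in SAT, and at 5.60, 5.94 and 5.64 in VAT. The 3 depots did not overlap, with SAT on top, although SAT 14 and VAT 17 both rounded to 5.94. In VAT/BAT it rose by 1.96 on the log2 scale (standard error 0.42, adjusted p = 0.00715), and the rise in SAT/BAT was 2.93 (standard error 0.54, adjusted p = 0.0121). Tested among all 1251 miRNAs, with no filter on low values, it had an adjusted p of 0.0912 and 0.0909 in these comparisons. The VAT/SAT change of -0.98 (95% interval -1.91 to -0.05) had an adjusted p of 0.124, and without SAT 14, the lowest SAT library, it was -1.36 with an adjusted p of 0.0203.

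MiR-145a-3p stood at the floor of 3.32 in BAT 12, at 4.92 in BAT 15 and at 4.91 in BAT 20. In SAT it was at 6.85, 7.75 and 7.35, and in VAT at 8.35, 7.71 and 8.37. Each WAT library was above each BAT library, and VAT 17 fell among the SAT libraries. In VAT/BAT its level was 13.6-fold higher (log2 fold change 3.76, standard error 0.50, 95% interval 2.55 to 4.97, adjusted p = 0.00104), the largest change of the 4 arms in the values as deposited, and it was called under all 13 other settings (2.37 to 5.16). With a further 40 added, its change of 2.37 was no longer above the 2.42 of miR-143-3p. In SAT/BAT the log2 fold change was 2.93 (standard error 0.55, adjusted p = 0.0123), and the call was lost without SAT 20 (adjusted p = 0.0502), with no filter on low values (0.0926) and with the lowest value subtracted and 1 added (4.30, adjusted p = 0.0690). The VAT/SAT change of 0.83 (95% interval 0.02 to 1.64) had an adjusted p of 0.130. Since 2 BAT libraries for miR-143-5p and 1 for miR-145a-3p were at the lowest value, the sizes of these changes depend on that floor, and over other offsets and settings they ran from 0.77 to 4.11 for miR-143-5p in VAT/BAT.

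**Figure D1:**
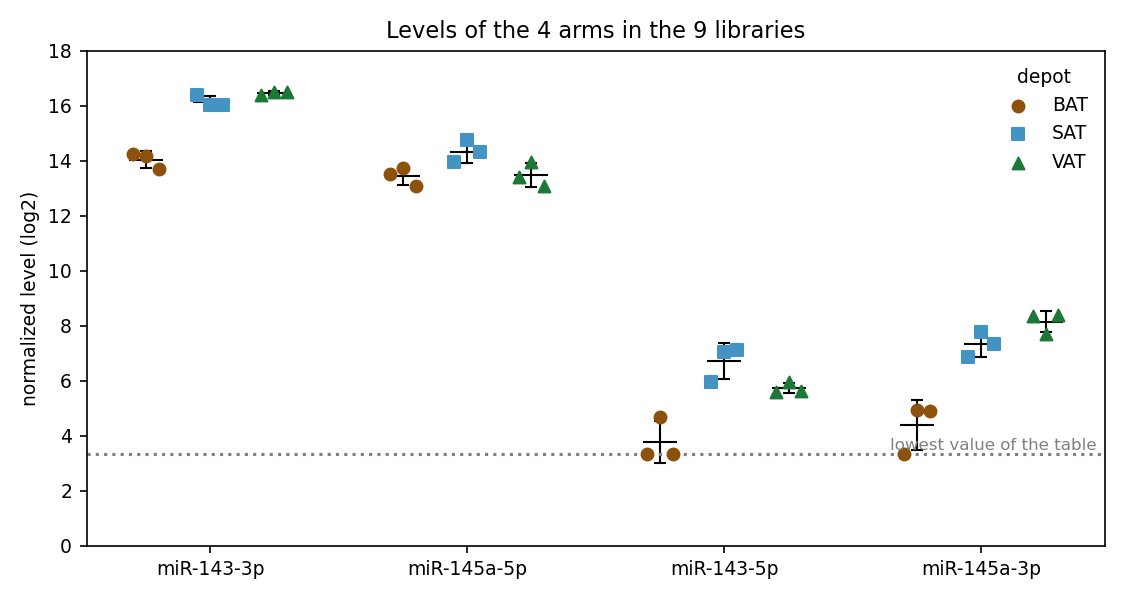
Normalized log2 level of the 4 arms in each of the 9 libraries, with the mean (horizontal line) and SD (vertical bar) of each depot. MiR-143-3p and both low arms are higher in SAT and VAT than in BAT without overlap, while miR-145a-5p covers 13.09 to 13.74 in BAT and 13.09 to 13.94 in VAT.

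These counts stand against a background in which many miRNAs differed. In VAT/BAT, 3 of the 4 arms were called, all higher in VAT, where 66.2% of all tested miRNAs were called in either direction and 39.4% higher in VAT. The same 3 arms did not overlap between these depots, as did not 72.0% of all tested miRNAs. In SAT/BAT, 3 of 4 were called against 40.5% (22.4% higher in SAT), and all 4 did not overlap against 52.5%. In both comparisons the called arms include miR-143-5p and miR-145a-3p, which passed the filter only with the help of SAT and VAT. The filter thus favoured their calls against BAT. MiR-143-3p exceeded the lowest value in every library. In VAT/SAT, 0 of 4 were called by limma, against 16.0% of all (8.45% higher in VAT), and 0 of 4 without moderation. Before adjustment, 3 of 4 had a p under 0.05 in limma's moderated test (0.042 to 0.046). The share of all tested miRNAs with such a p was not counted. In VAT/SAT 1 of 4, miR-143-5p, did not overlap against 39.4%. The share of 16.0% is itself unsteady, since the 55 calls behind it became 0 without SAT 19, 5 without VAT 20, 12 without SAT 20, 23 without VAT 14, 13 without moderation and 2 relative to miR-191-5p. By the size of the VAT/BAT change, miR-145a-3p ranked 34th of 343, miR-143-3p 98th, miR-143-5p 139th and miR-145a-5p 337th. The median change of all tested miRNAs was 0.40 on the log2 scale in VAT/BAT, 0.26 in SAT/BAT and 0.10 in VAT/SAT. VAT/BAT and SAT/BAT share the 3 BAT libraries, so that the one is not an independent repeat of the other.

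When both white depots were joined as WAT in a fit of all 9 libraries, miR-143-3p exceeded BAT by a log2 fold change of 2.26 (adjusted p = 3.02e-05). It was 3.35 for miR-145a-3p (adjusted p = 0.00017) and 2.45 for miR-143-5p (adjusted p = 0.00084). The change of miR-145a-5p was 0.46 (95% interval -0.19 to 1.11, adjusted p = 0.183). These 3 calls, where 64.1% of all tested miRNAs were called and 37.3% were higher in WAT, held under all 16 other settings that gave a value for every arm. As above, the filter favoured the calls of miR-143-5p and miR-145a-3p. The F test over the 3 depots called the same 3 arms, with an adjusted p of 0.0628 for miR-145a-5p, and 65.9% of all tested miRNAs.

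**Figure D2:**
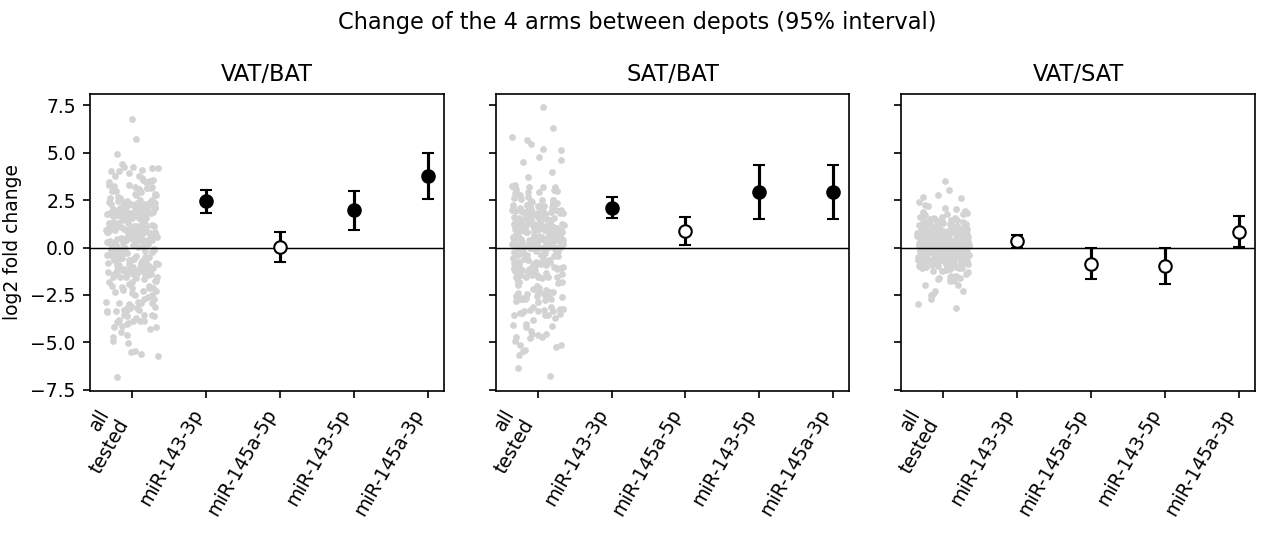
Log2 fold change of the 4 arms in the 3 depot comparisons, with 95% intervals from limma, beside the 343 tested miRNAs (grey). Filled points passed an adjusted p of 0.05: 3 arms in VAT/BAT, 3 in SAT/BAT and 0 in VAT/SAT.

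The 2 arms of each hairpin were next compared within a library, which removes a shift common to both log2 values. An arm at or near the floor does not follow a scaling of its library, so that such a scaling is not fully removed. For miR-143 the 3p arm exceeded the 5p arm by 10.27 ± 0.71 in BAT, 9.43 ± 0.87 in SAT and 10.74 ± 0.16 in VAT on the log2 scale (SD, n = 3 each), and its mean difference of 10.15 was the 6th largest among 84 hairpins with both arms tested. BAT overlapped both other depots. Limma's test of the arm difference over the 84 hairpins gave a change of 0.47 in VAT/BAT (adjusted p = 0.406), -0.83 in SAT/BAT (adjusted p = 0.333) and 1.31 in VAT/SAT (adjusted p = 0.114). None was called, and the values in BAT rest on a 5p arm that was at the floor in BAT 12 and BAT 20. With the lowest value subtracted and 1 added the VAT/BAT change was -1.68, and with a further 40 added it was 1.66 (adjusted p = 0.00111), while in SAT/BAT the further 40 gave 0.68. The direction of the miR-143 arm difference was therefore not determined in either comparison with BAT. In VAT/SAT, leaving out SAT 14 gave 1.81 with an adjusted p of 0.0130.

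For miR-145a, where the 5p arm is the guide, the gap between the arms narrowed from BAT to SAT to VAT. The 5p arm exceeded the 3p arm by 10.19, 8.82 and 8.18 on the log2 scale in BAT, by 7.09, 6.99 and 6.96 in SAT, and by 5.05, 6.23 and 4.71 in VAT. The 3 depots did not overlap. The share of the 84 hairpins without overlap was not counted, and among single tested miRNAs it was 72.0% in VAT/BAT, 52.5% in SAT/BAT and 39.4% in VAT/SAT. As ratios of the geometric means, the guide was 534 times the passenger in BAT, 129 times in SAT and 40.2 times in VAT. The BAT ratio depends on the floor, since BAT 12, with its 3p arm at the lowest value, had a ratio of 1164, against 452 in BAT 15. The VAT/BAT change in favour of the 3p arm was 3.73 (standard error 0.64, 95% interval 2.22 to 5.24, adjusted p = 0.00441), the 5th largest of the 84 hairpins, of which 47.6% were called. It was called under all 10 other settings, with changes of 2.34 to 5.13 and adjusted p between 0.000997 and 0.0304. Beside it, the level of the guide had not moved in a detectable way between these depots, and the level of the passenger had risen 13.6-fold.

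The steps between were less firm. SAT/BAT gave 2.05 (standard error 0.62, adjusted p = 0.0352) where 28.6% of hairpins were called, and the call was lost in 8 of 10 other settings, among them the omission of BAT 12, BAT 15 or any SAT library (1.49 to 2.17, adjusted p 0.0597 to 0.131). VAT/SAT gave 1.68 (standard error 0.44, adjusted p = 0.0462) where 14.3% of hairpins were called, and the call was lost in 9 of 11, among them the omission of any of the 6 libraries (1.37 to 2.13, adjusted p 0.0671 to 0.188). The direction was the same in all of these settings.

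**Figure D3:**
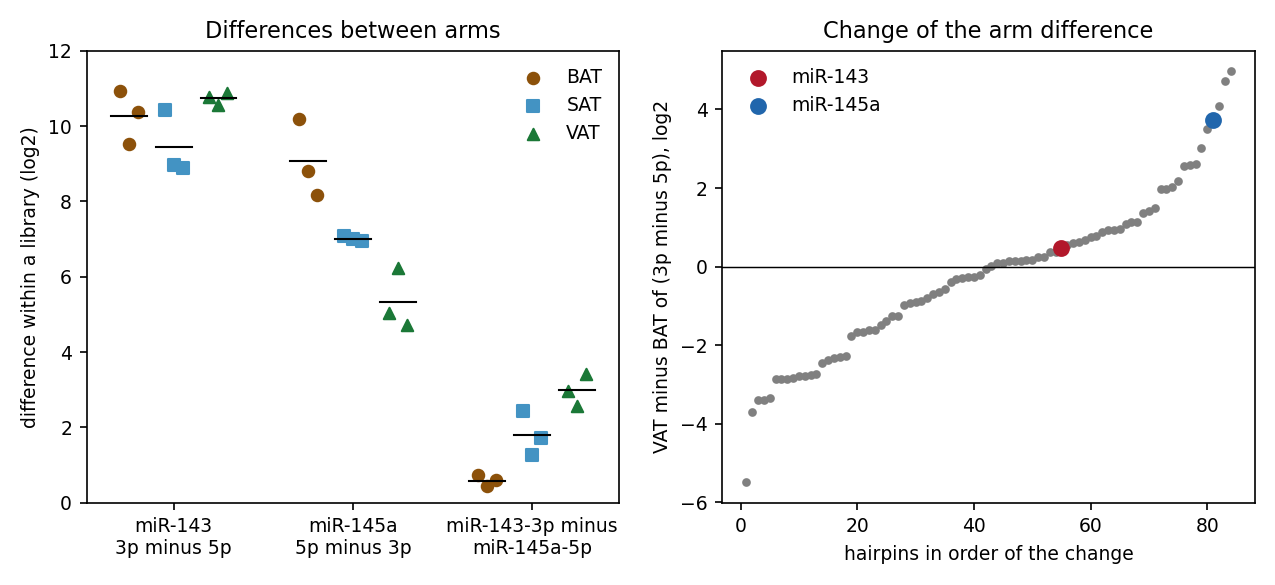
Left, log2 difference between arms or guides within each library, with the mean of each depot as a line. Right, VAT minus BAT change of the 3p minus 5p difference for 84 hairpins in order of size, with miR-145a at 3.73 and miR-143 at 0.47.

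The 2 guides, which are known to come from one primary transcript, were then set against each other. Mature miRNAs are of nearly equal length, so that values were not divided by length, and what differs in the ligation of each sequence was not removed. MiR-143-3p exceeded miR-145a-5p by 0.73, 0.44 and 0.60 on the log2 scale in BAT, by 2.44, 1.27 and 1.71 in SAT, and by 2.98, 2.56 and 3.42 in VAT. The depots did not overlap, and the ratio of the geometric means went from 1.51 in BAT to 3.50 in SAT and 7.93 in VAT. How often the difference of other pairs of miRNAs shows no overlap was not counted. For each pair of depots the exact permutation test (two-sided) gave p = 0.1, the smallest that 3 libraries against 3 allow. For WAT/BAT the difference was 1.80 and the exact permutation p was 0.0238 (two-sided, 84 assignments), again the smallest possible, and the difference lay higher in 6 of 6 WAT libraries than in any BAT library.

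Gaps of this size between neighbours were found at other loci too. Among 115 pairs of tested miRNAs whose hairpins lie within 10000 bases on the same strand, by RefSeq on GRCm38.p6, the median gap between the VAT/BAT changes of neighbours was 1.60, and the 2.39 of miR-143-3p and miR-145a-5p was the 35th largest. In VAT/SAT their gap of 1.18 was the 16th largest, with a median of 0.52, and in SAT/BAT their gap of 1.21 was the 60th. These pairs were chosen after values had been seen, share hairpins in larger clusters, and cover the 188 hairpins that could be placed. Many come from a single locus, among them those of miR-134, miR-381 and miR-668. Each hairpin entered by its most abundant tested miRNA that no other hairpin makes. Some pairs therefore set a guide beside a passenger arm, such as miR-17-5p and miR-18a-3p. The places given are thus not places among pairs of guides. Of the other 2 arms, miR-143-5p minus miR-145a-3p averaged -0.61 in SAT and -2.42 in VAT (exact permutation p = 0.1, two-sided, the smallest possible). In BAT the mean was -0.61, as in SAT. The change was -1.81 in VAT/BAT (exact permutation p = 0.1, two-sided) and -0.90 in WAT/BAT (exact permutation p = 0.262, two-sided). These comparisons rest on the floor, since one or both arms were at the lowest value in BAT 12 and BAT 20.

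Over the 9 libraries, miR-143-3p ran with miR-145a-3p at a Pearson correlation of 0.905 and with miR-143-5p at 0.817, but with miR-145a-5p at 0.335. With the depot means removed these became -0.63, -0.08 and 0.10. The first set thus follows the depot means, and the 9 points also share the rank-matched values of the table.

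In whole tissue, more cells of a type and more RNA per cell cannot be told apart. Other miRNAs that mark stromal and vascular cells were also higher in WAT. Of the 6 miRNAs listed for fibroblasts and mural mesenchyme (miR-199a, miR-199b and miR-214 arms), 5 were higher in VAT/BAT, where 39.4% of all tested miRNAs were, and 5 in SAT/BAT, where 22.4% were. MiR-214-3p was not called in either, at -0.11 in VAT/BAT and 0.06 in SAT/BAT. MiR-199a-3p and miR-199b-3p have identical values, so that counts, medians and shares hold the same values under 2 names. The median changes of the 6 were 2.76 and 2.19, against 0.40 and 0.26 for all tested miRNAs. Their summed share was 0.132% to 0.184% in BAT, 0.474% to 0.554% in SAT and 0.780% to 0.979% in VAT, without overlap. The depots stood in the order of the mean levels of miR-143-3p and miR-145a-3p. The means of miR-143-5p and miR-145a-5p had another order, with the highest in SAT (6.70 and 14.33) and lower ones in VAT (5.72 and 13.48). The 2 endothelial miRNAs, miR-126-3p and miR-126-5p, were both higher in VAT/BAT and SAT/BAT, with summed shares of 0.123% to 0.199% in BAT, 0.410% to 0.517% in SAT and 0.493% to 0.529% in VAT. Leukocyte miRNAs gave a mixed picture. Of the 6 tested, 5 were higher and 1, miR-150-5p, lower in VAT/BAT, and 1 was higher and 5 not called in SAT/BAT. The summed share of the 7 listed was 0.845% to 1.15% in BAT and 0.352% to 0.854% in VAT. In SAT it was 0.552% to 0.651% in SAT 14 and SAT 19, and 4.68% in SAT 20. Most of this share was miR-150-5p in every library, so that it does not describe the other listed miRNAs. MiR-150-5p was at 14.31 to 14.75 in BAT, 12.50 to 14.11 in VAT and 16.72 in SAT 20. MiR-223-3p, miR-142-3p, miR-155-5p and miR-511-3p stood at the floor in all 3 BAT libraries, miR-155-5p in all 9. The part of these cell types in the levels of miR-143 and miR-145a was not tested. BAT 20, with the most striated muscle miRNA, was the lowest of the BAT libraries for miR-143-3p and miR-145a-5p. BAT 15, with 6.28% of muscle miRNAs, was the highest of BAT for miR-145a-5p (13.74). VAT 20, with 6.27%, shared the highest value of miR-143-3p (16.51) and was the lowest of VAT for miR-145a-5p (13.09). A link with muscle was not tested. Without BAT 20, miR-143-3p still rose by 2.25 in VAT/BAT (adjusted p = 0.000619 in limma).

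The tested miRNAs most like miR-143-3p by Pearson correlation over the 9 libraries were miR-34c-5p, miR-26b-5p and miR-26a-5p (0.991 each), miR-532-5p (0.990) and miR-223-3p (0.986). All of them were lower in BAT than in either white depot. MiR-26a-5p was close to it in level too, at 15.20 ± 0.41 in BAT, 17.00 ± 0.17 in SAT and 17.45 ± 0.22 in VAT (SD, n = 3 each). MiR-26b-5p, of the same family, took the values 9.32 ± 0.35, 12.50 ± 0.09 and 12.76 ± 0.22 in the same order. MiR-223-3p, a myeloid miRNA, stood at the floor throughout BAT, at 9.16 ± 0.14 in SAT and at 10.08 ± 0.27 in VAT (SD, n = 3 each). The mature sequences that RefSeq (GRCm38.p6) gives for 3 of these 5 are shown, 5′ to 3′ with the seed (bases 2 to 8) in capitals, because they show that 2 of the 5 share a seed:
miR-26a-5p: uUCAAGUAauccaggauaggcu
miR-26b-5p: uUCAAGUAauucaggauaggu
miR-223-3p: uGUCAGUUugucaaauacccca
MiR-26a-5p comes from 2 hairpins, on chromosomes 9 and 10, miR-26b-5p from 1 on chromosome 1 and miR-223-3p from 1 on chromosome X. The likeness says no more than that the level in BAT was below that in both white depots.

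For miR-143-5p the most alike were miR-148a-5p (0.956), miR-181c-3p (0.950), miR-93-5p (0.939), miR-25-3p (0.937) and miR-99b-3p (0.935), which were, like it, highest on average in SAT. For the arms of miR-145a, a comparison added after values had been seen, the 3p arm ran most closely with miR-125b-2-3p (0.984) and with miR-199a-3p and miR-199b-3p, whose values are identical (0.975), and the 5p arm with miR-615-3p (0.889) and miR-15b-5p (0.849). MiR-199a-3p, of the mesenchymal list above, rose from 10.03 ± 0.42 in BAT to 12.23 ± 0.17 in SAT and 13.18 ± 0.22 in VAT (SD, n = 3 each). The miRNAs nearest to miR-145a-5p were, like it, highest on average in SAT.

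**Figure D4:**
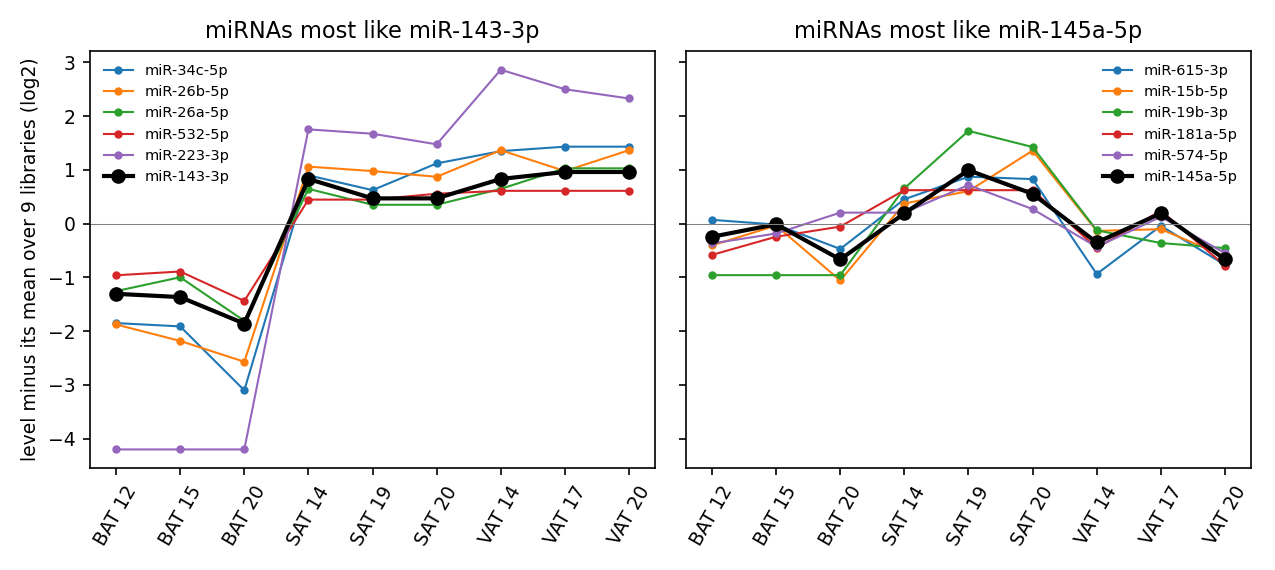
Log2 level minus the mean over the 9 libraries for miR-143-3p (left) and miR-145a-5p (right), in black, with the 5 tested miRNAs of highest Pearson correlation to each. On the left the BAT libraries lie below all others, and on the right the correlation runs only from 0.773 to 0.889.

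MiR-143 is one of a number of miRNAs reported to affect adipocyte differentiation, and others were counted beside it. Of 15 reported to promote it, 8 were higher in VAT than in BAT, 2 were lower and 5 were not called, where 39.4% of all tested miRNAs were higher and 66.2% were called. Their median change was 1.68 on the log2 scale against 0.40 for all tested miRNAs. The largest rises were those of miR-146b-5p (4.41, adjusted p = 0.000519) and miR-21a-5p (4.09, adjusted p = 0.000639), and the falls those of miR-107-3p (-1.28, adjusted p = 0.0397) and miR-30d-5p (-0.79, adjusted p = 0.0196). In SAT/BAT the counts were 9 higher, 1 lower and 5 not called (median 1.80), where 22.4% of all were higher.
Of 15 reported to restrain it, 13 were tested, and 10 were higher in VAT than in BAT, 2 lower and 1 not called (median 1.71), against the same 39.4% and 66.2%. Here miR-224-5p (adjusted p = 0.000207 in limma) and miR-138-5p (3.18, adjusted p = 0.0111) rose most, and miR-125a-5p (-1.31, adjusted p = 0.0109) and let-7b-5p (-0.79, adjusted p = 0.0469) fell. MiR-224-5p was at the floor throughout BAT and at 7.51 ± 0.54 in VAT (SD, n = 3), and so passed the filter only through the white depots. In SAT/BAT 6 of these 13 were higher and the other 7 were not called (median 0.67), where 22.4% of all were higher and 40.5% were called. MiR-143-3p, at 2.43 in VAT/BAT and 2.10 in SAT/BAT, lay above the median of both lists in both comparisons. In VAT/SAT, where miR-143-3p was not called, 2 of the promoting list were higher in VAT and 2 lower, and 4 of the restraining list were higher and 3 lower, where 16.0% of all were called.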

How the data were processed

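The data are 9 small RNA libraries, 3 each from BAT, SAT and VAT of HFD mice. Per the paper, the authors aligned reads with miRBase precursors, counted those within mature miRNAs, gave multi-mapping reads proportional parts, scaled each count to the usable total of its library and added 40. The table as deposited is in log2 values, where the paper speaks of RPKM, and its floor is 10 before log2, not 40. Values at the 100 highest ranks are nearly the same in every library (within 0.05 at 80 of them), as quantile normalization leaves them, a step that the sources used here do not name. The low range does not share this. An added constant shrinks changes near the floor. The labels name mm10 as the build, the sources name different Illumina instruments, and the aligner's settings are not given in the sources used here. The table holds no read counts, so that no counting error can be given.

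Values were used as deposited. Of 1251 miRNAs, 343 exceeded the floor in no fewer than 3 of the 9 libraries and were tested in R 4.3.3 with lmFit and eBayes of limma 3.58.1 (two-sided, Benjamini-Hochberg) on the 6 libraries of each comparison, without a block or covariate. WAT/BAT (BAT against the average of both white depots) and the F test used all 9 libraries. The 3p minus 5p difference within a library was fitted the same way over 84 hairpins. Differences between the 2 hairpins were tested by exact permutation (scipy 1.17.1, numpy 2.4.6). A miRNA was called at an adjusted p under 0.05. The fit was tested on simulated data. A test without moderation, the kind used in the paper, was kept as an alternative, since 3 libraries give a poor variance for each miRNA. It does not repeat the calls of the paper. Here its p-values were adjusted and no fold change was required. For miRNAs the paper names a p threshold, a fold change and no adjustment.

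Named miRNAs are the 4 arms, the 5 tested miRNAs with the highest Pearson correlation to each arm of miR-143, the nearest of the miR-145a arms (added after values were seen), and from each list on adipocyte differentiation the 2 with the largest rise and the 2 with the largest fall in VAT/BAT among those called. Single markers are named to describe a list or library, and were chosen after their values were seen. Marker lists covered striated muscle, fibroblasts and mural mesenchyme, endothelium, leukocytes, epithelium, brown adipocytes and the Hox clusters. The members, lists and tests were chosen with earlier results of these data known. Hairpins were placed by GENCODE M21 on GRCm38 and by RefSeq on GRCm38.p6, where 288 of the 343 tested miRNAs had a mature entry. Alternatives were other offsets, the 172 miRNAs of higher mean level, no filter, a common median, values relative to miR-191-5p, one fit of all libraries, a replicate block, no moderation and each library left out. Those for WAT/BAT and for the arms of miR-145a were added after seeing the data.

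The paper calls the libraries of a depot biological replicates. The sample titles number them but do not say that a number is a mouse, or whether a library holds 1 mouse or a pool, so that p-values measure the spread between these samples. SAT and VAT share the numbers 14 and 20, and BAT shares 20 with both. With depot means removed, the 4 same-numbered pairs correlated at 0.0463 on average (-0.139 to 0.270). The 23 other pairs correlated at -0.0075 (-0.480 to 0.358). With so few pairs and so wide a range, this cannot settle whether a shared number is a shared mouse.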

Additional observations from a re-analysis of the deposited data

How the results depend on the processing

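The calls of miR-143-3p in VAT/BAT and SAT/BAT, of miR-145a-3p in VAT/BAT, of the miR-145a arm difference in VAT/BAT and of 3 arms in WAT/BAT were kept under every alternative that gave a value. The tables hold no depth, so that the floor and the 3 libraries per depot limit the low arms most, and the cause of the changes below was not tested, except that testing more or fewer miRNAs changes the adjustment.

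Without the filter, miR-143-5p missed the threshold in VAT/BAT (1.96, adjusted p = 0.0912) and in SAT/BAT (2.93, adjusted p = 0.0909), as did miR-145a-3p in SAT/BAT (2.93, adjusted p = 0.0926), which left 1 arm called in SAT/BAT. Over all miRNAs, calls without the filter went from 227 to 128 in VAT/BAT, from 139 to 74 in SAT/BAT and from 55 to 4 in VAT/SAT. Among the 172 miRNAs with the higher mean, 120 were called in VAT/BAT and 128 in WAT/BAT (220 in the main test), miR-145a-5p passed in SAT/BAT (0.89, adjusted p = 0.0435), and the low arms have no value. A fit of all 9 libraries called miR-145a-5p in SAT/BAT (0.89, adjusted p = 0.0486), lost the miR-145a arm difference in VAT/SAT (1.68, adjusted p = 0.144) and called 30 miRNAs in VAT/SAT. Values relative to miR-191-5p gave 2 calls in VAT/SAT, and no moderation gave 13.

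With the lowest value subtracted and 1 added, miR-145a-3p in SAT/BAT was 4.30 (adjusted p = 0.0690), and the miR-145a arm difference 3.41 in SAT/BAT (adjusted p = 0.119) and 1.72 in VAT/SAT (adjusted p = 0.0682), all below the threshold. The miR-143 arm difference turned to -1.68 in VAT/BAT. With 40 added, it was 1.66 in VAT/BAT (adjusted p = 0.00111) and turned to 0.68 in SAT/BAT, and that of miR-145a in SAT/BAT was 0.79 (adjusted p = 0.101). Without moderation, the miR-145a arm difference lost its call in SAT/BAT (2.05, adjusted p = 0.0721) and VAT/SAT (1.68, adjusted p = 0.102). Restricting the arm test to the 31 hairpins with both arms above the lowest value in all 9 libraries gives no value for either hairpin.

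With each library left out in turn, the changes were -0.20 to 0.23 for miR-145a-5p in VAT/BAT (-0.15 without BAT 20, -0.20 without VAT 17), 2.40 to 3.20 for miR-145a-3p in SAT/BAT and -1.36 to -0.77 for miR-143-5p in VAT/SAT. It gave 1.04 to 1.81 for the miR-143 arm difference in VAT/SAT, and 1.49 to 2.49 in SAT/BAT and 1.37 to 2.13 in VAT/SAT for that of miR-145a. In VAT/SAT it gave 0 to 1 called arms and 0 to 49 called miRNAs, with 0 without SAT 19, 5 without VAT 20, 12 without SAT 20 and 23 without VAT 14.

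With the library number as a replicate block, miR-143-3p changed by 0.33 in VAT/SAT (adjusted p = 0.160) and by 2.27 in WAT/BAT (adjusted p = 2.89e-05), 55 and 223 miRNAs were called, and the miR-145a arm difference in VAT/SAT was 1.72 (adjusted p = 0.0323). The block changed no call of an arm or arm difference, with within-block correlations of 0.0102 (VAT/SAT), 0.0379 (WAT/BAT) and 0.130 (arms). BAT shares only 1 number with each white depot, and the block was not fitted in VAT/BAT and SAT/BAT.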
